A study of Marchantia polymorpha with 78 samples.

Results

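Thalli of the liverwort Marchantia polymorpha were compared after 24 h and after 12 h of far-red light, with continued darkness at the same times beside them. The comparison used the 3 libraries labelled 24 h far-red light and the 3 labelled 12 h, chosen by label alone, which make 6 of the 78 poly(A) RNA libraries of the series. The 3 darkness libraries at each time gave 6 more. All plants were wild-type Tak-1, a male laboratory line, with no transgene or mutation in any group. Gemmae, the clonal propagules of this plant, were cultured on medium with sucrose at 23 °C, with 8 days of unbroken white light and then 24 h of darkness. Plates stayed in darkness or were moved to far-red light with an emission maximum of 730 nm and, per the labels, 30 to 40 µmol of photons per square metre per second. Each library pooled the thalli of 3 plants. The labels state that a plate carried 3 biological replicates, so plate, clock time and time under the lamp cannot be told apart between 12 h and 24 h, and p-values measure the spread among these libraries. In whole thalli, fewer cells of a type and less RNA per cell cannot be told apart either.

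Far-red light is read in land plants by phytochrome, a red and far-red photoreceptor, and drives little photosynthesis, so far-red thalli receive a light signal with little carbon gain. In Marchantia, compounds made by the early part of the gibberellin pathway, from ent-kaurene through ent-kaurenoic acid, take part in the far-red response. Their isoprenoid precursors come from the plastid MEP pathway, which DXS and DXR enzymes open. Late embryogenesis abundant (LEA) proteins and dehydrins protect plant cells during water loss and are commonly induced by abscisic acid. B-type cyclins and B-type cyclin-dependent kinases act at mitosis, and H3.1-type histones are deposited when DNA is copied.

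Values are CPM, estimated reads scaled to a sum of 1000000 per library, with no term for gene length, so levels are compared between libraries for 1 gene and never between genes. Depth was 35252931 to 38461876 estimated reads per library at 12 h of far-red light, 29641804 to 33896071 at 24 h, 28768556 to 34341813 at 12 h of darkness and 27192613 to 30687032 at 24 h. Replicates correlated across genes with r of 0.9947 to 0.9965 at 12 h and 0.9964 to 0.9966 at 24 h of far-red light. On the leading principal component of all 78 libraries, time zero lay between −43.07 and −41.54. Far-red libraries lay between −20.95 and −19.62 at 12 h and between −5.76 and −4.57 at 24 h, while darkness libraries lay between −42.4 and −39.45 and then between −46.52 and −45.63. Far-red thalli thus moved away from time zero between 12 h and 24 h, and thalli in darkness did not move in that direction.

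Between 12 h and 24 h of far-red light, 219 of 13054 tested genes changed (1.68%), of which 145 rose (1.11%) and 74 fell (0.567%). A gene was called when limma's Benjamini-Hochberg adjusted p was under 0.05 and the log2 change of CPM + 1 was at least 1 in size. On adjusted p alone, 3282 genes passed (25.1%), so most changes that were larger than the spread were small. In darkness 42 genes were called over the same interval (0.322%), 18 higher (0.138%) and 24 lower (0.184%). The difference between both changes, tested as an interaction, was called for 306 genes (2.34%), 206 with the change higher in far-red light (1.58%) and 100 lower (0.766%). It was called for 118 of the 145 rises and 58 of the 74 falls. Of the 2508 tested genes with a symbol, 55 rose and 23 fell, larger shares than over all tested genes. The gene lists below hold only genes with a symbol. A list share moderately above that of all tested genes may thus not exceed that of genes with a symbol.

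**Figure D1:**
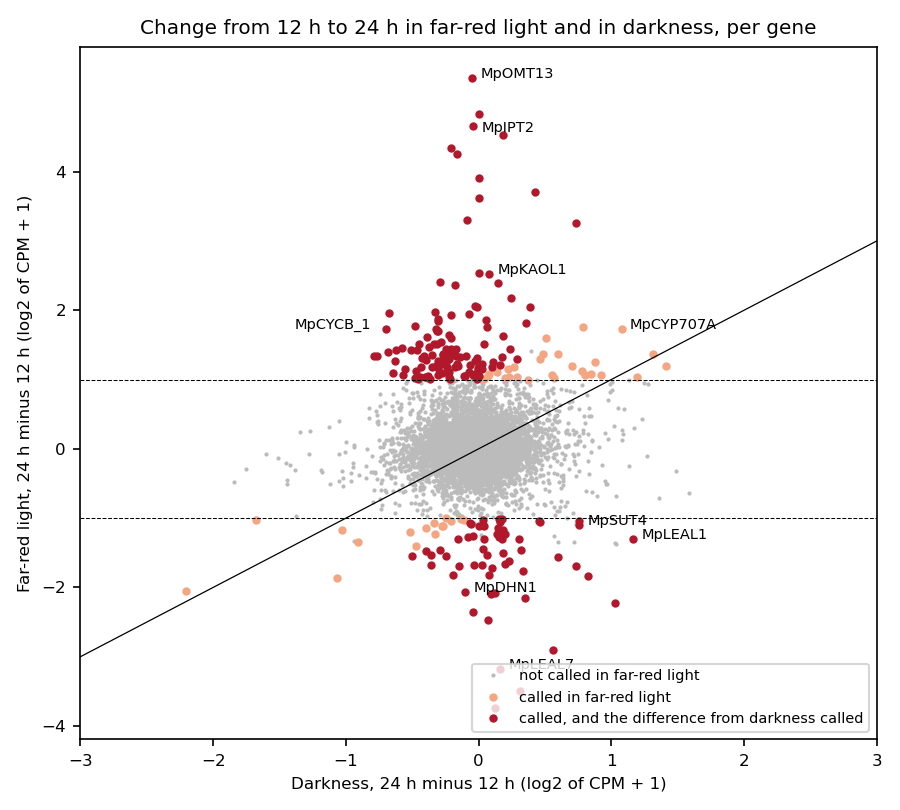
Change from 12 h to 24 h of each tested gene in darkness (horizontal) and in far-red light (vertical), both as the log2 difference of CPM + 1. Dashed lines mark a log2 change of 1 in size in far-red light and the diagonal marks equal changes. The 219 called genes spread vertically from −3.73 to 5.35 while most of them lie near 0 in darkness.

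Of the 219 far-red calls, 8 (3.65%) were also called in darkness, where 0.322% of all tested genes were, and they made up 19% of the darkness calls. In the same direction moved MpCYP707A, MpPR1o, MpPPO40, MpGH19.7, Mp3g19350 and Mp8g02780. The other two, MpLEAL1 and Mp2g15740, fell in far-red light and rose in darkness. Mp2g15740 went from 6.87 to 0.61 CPM in far-red light and from 8.25 to 18 CPM in darkness. MpGH19.7, Mp3g19350, Mp8g02780 and Mp2g15740 were named after their values were seen.

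Most called genes reached, at 24 h, a level outside everything earlier in the far-red course. The mean at 24 h was the highest of time zero and the 5 far-red times for 135 of the 145 rises (93.1%), against 34.4% of all tested genes, and the lowest for 67 of the 74 falls (90.5%), against 22.1%. It was the highest of all 26 groups for 56 rises (38.6%), against 8.86% of all tested genes. These shares are descriptions, since a gene called higher at 24 h was chosen on that value. Of the 145 rises, 14 (9.66%) were among the 223 genes called higher in far-red light than in darkness at 180 min (1.71% of tested genes). Most rises had thus not been called early, but a larger share of them had than of all tested genes. At 180 min 256 genes were called in all (1.96%). Those libraries share no sample with the comparison of 24 h and 12 h. The 14 rises were 6.28% of the early list, against the 1.11% of all tested genes that rose. Of the 74 falls, 4 were among the 33 genes called lower at 180 min, also a larger share than the 0.253% of all tested genes.

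The largest rises were in genes that had been near 0. MpOMT13, an O-methyltransferase-family gene, stood at 1.94, 1.9 and 2.07 CPM at 12 h of far-red light and at 124, 105 and 132 CPM at 24 h. In darkness it was between 0 and 0.382 CPM in all 6 libraries. The rise was 5.35 ± 0.18 on the log2 scale (SE; limma adjusted p = 2.8e-34), and the highest mean of any other group was 2.35 CPM, in blue light at 24 h. The cytochrome P450 gene MpCYP716-like21 was at 0.112, 0.286 and 0 CPM at 12 h and at 33.1, 26.6 and 34.4 CPM at 24 h. It was at 0 in all 6 darkness libraries, and no other group mean passed 0.133 CPM. MpIPT2 belongs to the isopentenyltransferases, which in flowering plants make cytokinins or modify transfer RNA, and rose from 0.281, 0.026 and 0.142 CPM to 30.5, 20.5 and 34.9 CPM. Its other group means did not pass 0.706 CPM. In all 3 genes every library at 24 h lay far above every library at 12 h.

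MpCYP821A1 rose from 3.91, 4.13 and 1.93 CPM to 93.1, 87.3 and 108 CPM, a log2 change of 4.53 ± 0.15 (SE). MpCYP716AA1 rose from 9.78, 11.3 and 11 CPM to 155, 140 and 158 CPM, by 3.70 ± 0.18. CYP716 enzymes oxidise triterpenes in flowering plants. Both genes had moved before 24 h: MpCYP821A1 had a mean of 0.223 CPM at time zero and 3 CPM at 180 min, and MpCYP716AA1 rose from 1.28 CPM at 180 min to 10.7 CPM at 12 h. MpABCG11, whose Arabidopsis namesake exports cuticular lipids, rose from 3.68, 4.26 and 5.22 CPM to 49.3, 48.9 and 52.6 CPM. In darkness its mean went from 1.75 to 3.48 CPM, a log2 change of 0.74 that passed the adjusted p (limma, 0.00047) but not the fold threshold, and the difference between both changes was 2.52 ± 0.22 (SE). MpCYP829-like27 rose from a mean of 0.201 to 4.03 CPM, by 2.06 ± 0.09 on the log2 scale.

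For 3 named genes no read was counted in any library at 12 h. MpLTPd8, a lipid transfer protein gene, was at 15.5, 11.4 and 15.5 CPM at 24 h, at least 515-fold above the limit that a count of 0 allows, taken as 3 reads over the 3 libraries together (0.0275 CPM). MpPR15a, of the germin-like PR15 family, was at 12.2, 7.55 and 15.3 CPM, at least 426-fold above that limit. MpDFR-like10, a dihydroflavonol reductase-like gene, was at 1.82, 1.57 and 1.22 CPM, at least 55.9-fold above it. These limits cover counting error only. Because such genes were at or near 0 in nearly all of the 26 groups, the shared spread gave them small errors: the SE of MpLTPd8 was 0.08 in the fit of all libraries and 0.13 in the fit of the 6 far-red libraries, and that of MpPR15a was 0.10 and 0.20. Both remained called there, with limma adjusted p of 1.3e-07 and 2.3e-06. In all, 23 rises had a mean under 1 CPM at 12 h, and for 12 of them every group mean outside far-red light was also under 1 CPM. A gene near 0 in all other groups passes the filter of 1 CPM only through the libraries where it is high. That pattern thus follows in part from the selection, and the counts of 23 and 12 were not set against all tested genes.

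**Figure D2:**
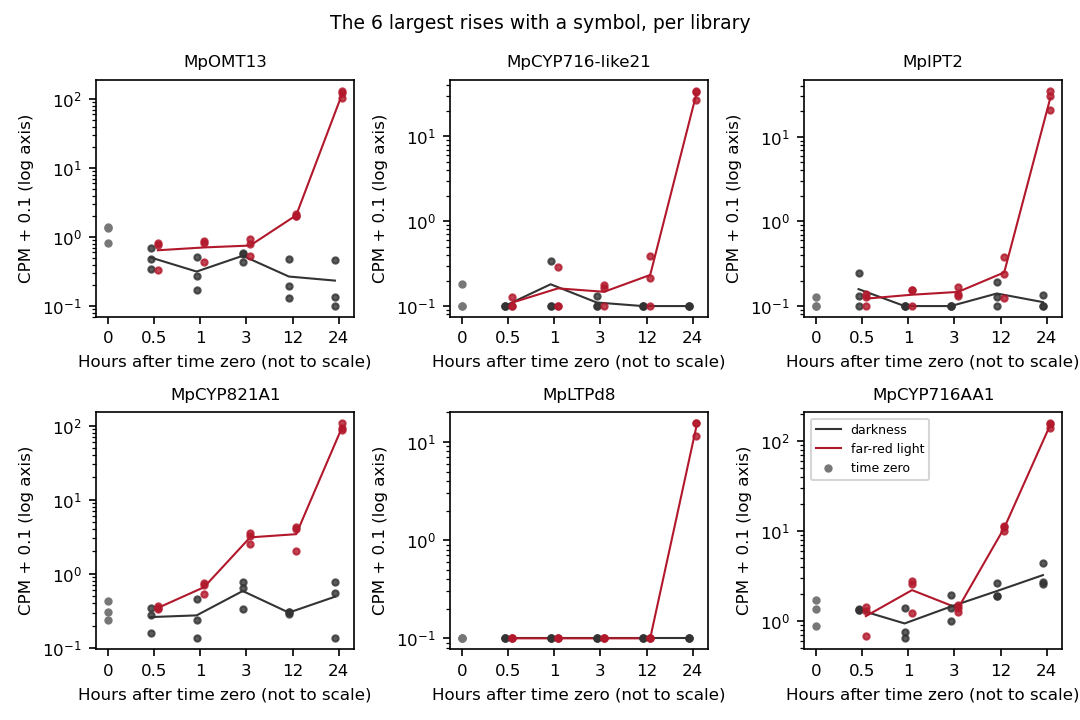
CPM + 0.1 on a log axis against time after time zero, drawn at equal steps, for the 6 largest rises with a symbol. Points are libraries and lines join group means (n = 3). At 24 h all far-red libraries stand above those of every earlier time, and the darkness libraries stay at or below 4.25 CPM.

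Among genes without a symbol, Mp3g20700 rose from 1.18, 1.35 and 1.22 CPM to 44.8, 42.3 and 46.8 CPM and Mp2g07220 from 1.07, 0.52 and 0.539 CPM to 36, 22.8 and 37 CPM. The changes were 4.34 ± 0.18 and 4.25 ± 0.13 on the log2 scale (SE), with no called change in darkness (−0.21 and −0.16). These were the 2 largest rises of that kind.

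Single genes of isoprenoid supply and gibberellin-related oxidases rose. Of 22 plastid isoprenoid and carotenoid genes, all tested, 3 rose (13.6%, against 1.11% of all tested genes) and 0 fell, with a median log2 change of 0.21 against 0.01 over all tested genes. MpDXS2, coding for the enzyme that opens the MEP pathway, rose from 56.8, 53.4 and 50.9 CPM to 150, 138 and 156 CPM. In darkness it was at 11.4, 9.64 and 11.2 CPM and then at 8.31, 10.3 and 9.61 CPM. The change in far-red light was 1.45 ± 0.10 (SE; limma adjusted p = 8.8e-20). MpDXR2, for the next enzyme of the pathway, rose from 9.11, 6.29 and 7.91 CPM to 19.4, 18.5 and 19.4 CPM, by 1.21 ± 0.15. Its difference from the darkness change, 1.05 ± 0.21, fell under the fold threshold with TMM factors (0.99), with quantile normalization (0.96) and without the second far-red library (0.92) or the first darkness library at 12 h (0.84).

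The other copies of both enzymes showed smaller differences, MpDXS1 going from 216 to 257 CPM and MpDXR1 from 65.1 to 76.2 CPM, log2 changes of 0.25 and 0.23 (limma adjusted p of 5.3e-05 and 6.8e-05) under the fold threshold. The remaining call was MpNCED, for the carotenoid cleavage enzyme that starts abscisic acid synthesis, which went from 6.24, 6.32 and 6.67 CPM to 12.6, 14.4 and 16 CPM, by 1.04 ± 0.15 (SE; 0.97 without the third library at 24 h). MpNCED, MpDXS1, MpDXR1 and the KOL, KAOL3 and DELLA genes below were added after their values were seen.

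Of 16 gibberellin-related genes, all tested, 2 rose (12.5%, against 1.11% of all tested genes) and 0 fell, with a median log2 change of 0.07. MpKAOL1 codes for an ent-kaurenoic acid oxidase-like P450. It was at 18.2, 18 and 21.5 CPM at 12 h and at 114, 112 and 119 CPM at 24 h, a log2 rise of 2.53 ± 0.10 (SE; limma adjusted p = 8e-32). In darkness its values were 7.17, 7.16 and 6.78 CPM and then 7.53, 6.51 and 8.59 CPM. MpKAOL2 rose from 23.9, 23.9 and 25.2 CPM to 90.8, 75.1 and 88.3 CPM, by 1.76 ± 0.11. Both KAOL genes reached the highest mean of any group, the next being 36.8 CPM for MpKAOL1 in blue light at 24 h and 25.1 CPM for MpKAOL2 at 180 min of far-red light.

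The step before the KAOL enzymes had another course. MpKOL1, an ent-kaurene oxidase-like gene, had reached a mean of 133 CPM at 180 min and 157 CPM at 12 h, from 20.3 CPM at time zero. At 24 h it was again at 157 CPM, with a log2 difference of −0.00 ± 0.09 (SE). MpKOL2 was at 16.4 CPM at both times, MpKOL3 at 1.07 and 1.19 CPM, MpKAOL3 at 2.52 and 2.37 CPM and MpDELLA, for the growth repressor that gibberellins remove in flowering plants, at 25.4 and 22.8 CPM. None of these 4 passed the test. MpKOL1 was therefore high before the interval in which MpKAOL1 and MpKAOL2 rose.

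Of 15 tested terpene synthases among 38 with a symbol, 2 rose (13.3%, against 1.11% of all tested genes) and 0 fell, with a median log2 change of 0.07. MpTPS4 rose from 23.2, 21.2 and 23.8 CPM to 71.5, 69.5 and 71.5 CPM, by 1.60 ± 0.11 (SE), against 10.9 and 9.26 CPM in darkness. MpTPS5 rose from 22.3, 19.6 and 22.3 CPM to 45.8, 40 and 45.4 CPM. Its log2 change was at the threshold, 1.00 ± 0.14, and fell below it with TMM factors (0.98), with quantile normalization (0.94) and without single libraries (0.94 to 0.97). In darkness the MpTPS5 mean went from 19.1 to 25.1 CPM, and the difference between both changes, 0.63, was not called. None of 15 tested sterol and triterpene genes was called.

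**Figure D3:**
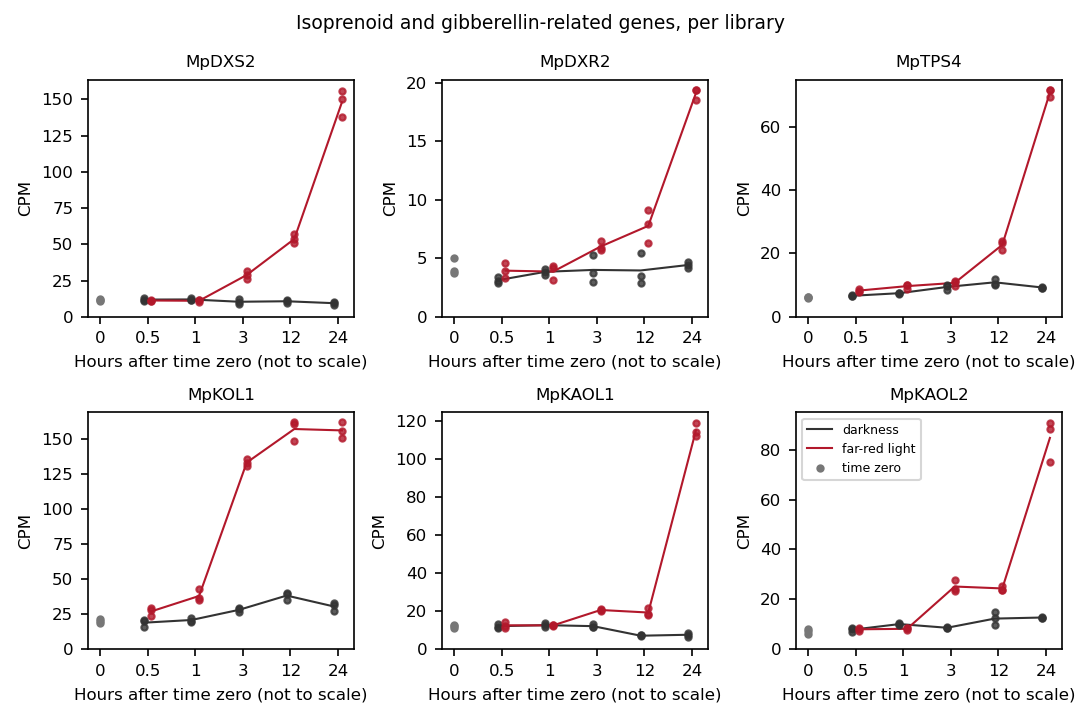
CPM on a linear axis against time after time zero, drawn at equal steps, for 6 isoprenoid and gibberellin-related genes. Points are libraries and lines join group means (n = 3). MpKOL1 is near its 24 h level by 180 min, whereas MpKAOL1, MpKAOL2, MpTPS4, MpDXS2 and MpDXR2 take their largest step between 12 h and 24 h.

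Genes with a cytochrome P450 (CYP) symbol made up 11 of the 55 rises with a symbol. The P450-like KAOL genes carry another symbol, so MpKAOL1 and MpKAOL2 were counted with the gibberellin-related genes and not here. Of 129 genes with a CYP symbol 85 were tested, 11 rose and 0 fell, a share of 12.9% against the 1.11% of all tested genes, and the median log2 change was 0.13. In darkness 1 of the 85 rose (1.18%, against 0.138% of all tested genes), MpCYP707A. Beyond those above, MpCYP707D1 went from a mean of 16.6 to 62.9 CPM, MpCYP829D1 from 5 to 16.2 CPM and MpCYP816A1 from 41.8 to 98.8 CPM, genes that the naming rule did not reach. Of 27 tested 2-oxoglutarate dioxygenases, another oxidase family of specialised metabolism, 1 rose (3.7%). This gene, MpDOXC30, went from 60.2, 62.3 and 57.6 CPM to 137, 121 and 142 CPM, by 1.13 ± 0.12 (SE), and stayed between 15.5 and 18.4 CPM in darkness. MpOMT13 was the 1 call among 12 tested O-methyltransferases (8.33%), MpABCG11 the 1 among 86 ABC transporters (1.16%) and MpLTPd8 the 1 among 14 lipid transfer proteins (7.14%). Rises were 1.11% of all tested genes, so the ABC transporter share was near that. The other shares rest on 1 gene each. None of 30 tested UDP-glycosyltransferases was called, and of 65 phenylpropanoid and flavonoid genes only MpDFR-like10 was (1.54%).

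Some genes of mitosis and some core histone genes rose in far-red light. Of 32 cell cycle regulators 22 were tested, of which 4 rose (18.2%, against 1.11% of all tested genes) and 0 fell (0.567% of all tested genes), with a median log2 change of 0.25 in far-red light and −0.11 in darkness. MpCYCB_1, a B-type cyclin, was at 9.56, 10.2 and 9.7 CPM at 12 h and at 35.9, 33 and 35.9 CPM at 24 h. In darkness it was at 3.79, 4.92 and 6.6 CPM and then at 3.42, 2.5 and 2.28 CPM. The far-red rise was 1.73 ± 0.11 (SE; limma adjusted p = 7.6e-20). The darkness change was −0.70 (adjusted p = 6.1e-06), short of the fold threshold, and the difference between both was 2.43 ± 0.16. MpCDKB, the B-type cyclin-dependent kinase, rose from 9.3, 8.37 and 8.96 CPM to 25.7, 24.6 and 27.7 CPM, by 1.45 ± 0.11, while its darkness mean went from 4.12 to 2.44 CPM. MpCYCA and MpCDC25_1 were the other two calls, with log2 rises of 1.26 and 1.19. Neither MpCYCB_1 nor MpCDKB was highest in far-red light: both peaked in red light at 12 h, at 106 and 64.6 CPM.

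Of 38 histone and replication licensing genes 36 were tested, 8 rose (22.2%, against 1.11% of all tested genes) and 0 fell, and the median log2 change was 0.58 in far-red light and −0.16 in darkness. On adjusted p alone 28 of the 36 were higher and 2 lower, against 13.9% and 11.3% of all tested genes. MpH3.1a rose from 19.1, 19.8 and 20.4 CPM to 60.3, 55.6 and 62.3 CPM, by 1.54 ± 0.11 (SE). MpH3.1d rose from 6.3, 6.21 and 8.65 CPM to 20.1, 18.1 and 23.2 CPM, by 1.42 ± 0.13. Its darkness values went from 2.64, 1.95 and 1.22 CPM to 0.424, 1.36 and 0.951 CPM. The other calls were MpH3.1c, MpH3.1e, MpH2B.4, MpH4b, MpH4d and MpH4g, with log2 rises of 1.11 to 1.37. All calls of this list were core histones, and MpMCM6, a subunit of the replicative helicase named here after its values were seen, differed by 0.74 on the log2 scale (6.89 to 12 CPM; limma adjusted p = 7e-05).

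Summed over all 38 histone and licensing genes, the level was 2255 ± 60.6 CPM (SD, n = 3) at 12 h and 2767 ± 68.8 CPM at 24 h of far-red light, without overlap of the libraries. In darkness the sums were 2172 ± 41.7 and 2035 ± 33.6 CPM, and at time zero 2398 ± 26.6 CPM. The far-red sum at 24 h remained under those of white, blue and red light at 24 h, which were 3347, 3312 and 3486 CPM. Histone copies are similar in sequence. Estimated reads were fractional, the mark of reads shared among genes, in 6 or more of the 12 far-red and darkness libraries for 4 of the 36 tested members. MpH3.1a had fractional reads in 2 of the 12 and MpH3.1d in 0.

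**Figure D4:**
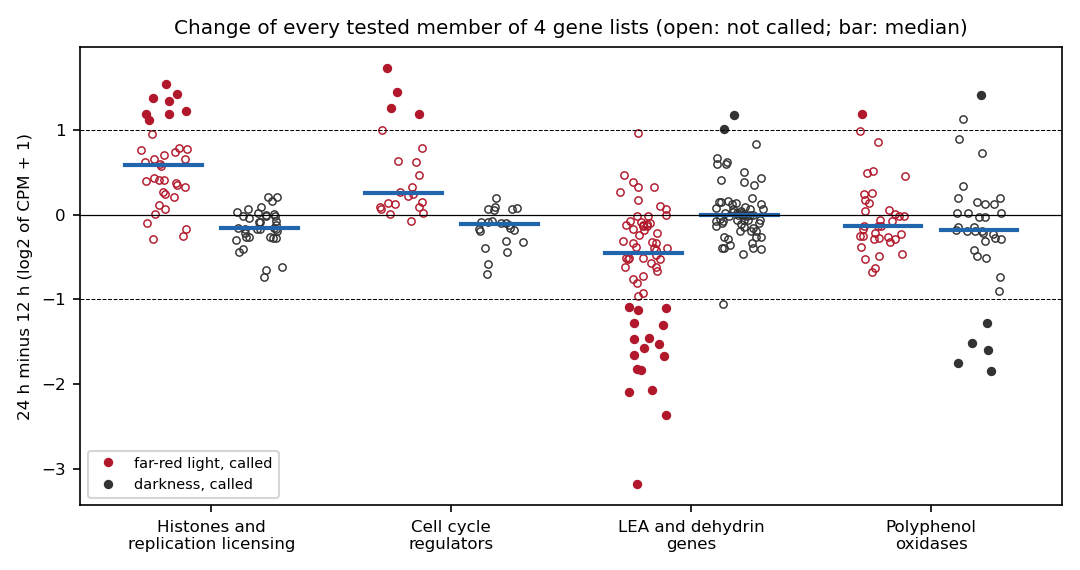
Log2 change of CPM + 1 from 12 h to 24 h for every tested member of 4 gene lists, in far-red light (red) and darkness (black). Filled points were called, bars are medians and dashed lines mark 1 in size. Histones and cell cycle regulators lie mostly above 0 in far-red light and LEA genes mostly below, with medians of 0.58, 0.25 and −0.45, while their darkness medians are −0.16, −0.11 and −0.01.

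LEA and dehydrin genes made up 17 of the 23 falls with a symbol. Of 72 such genes 64 were tested, 0 rose and 17 fell (26.6%, against 0.567% of all tested genes), and the median log2 change was −0.45. The other 47 were not called, and on adjusted p alone 35 of the 64 were lower and 5 higher. Over all tested genes those shares were 11.3% and 13.9%. In darkness 2 of the 64 rose (3.12%, against 0.138% of all tested genes) and 0 fell, with a median of −0.01. The difference between both changes was called lower in far-red light for 20 (31.2%, against 0.766% of all tested genes). MpLEAL7 was at 21.7, 19.8 and 28.7 CPM at 12 h of far-red light and at 1.09, 2.03 and 1.99 CPM at 24 h. In darkness it was at 41.9, 36.8 and 36.3 CPM and then at 33.7, 50 and 46.7 CPM. The fall was −3.18 ± 0.27 on the log2 scale (SE; limma adjusted p = 2.2e-15).

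The dehydrin gene MpDHN1 fell from 34, 33.9 and 42 CPM to 8.97, 8.41 and 6.54 CPM, by −2.07 ± 0.16 (SE), and its darkness libraries stayed between 62.4 and 84.5 CPM. MpDHN2 and MpDHN3, named after their values were seen, went from 95.3 to 68.1 CPM and from 90.7 to 71.8 CPM in far-red light, changes short of the fold threshold. MpLEA-like61 fell from 5.52, 5.89 and 7.84 CPM to 0.383, 0.321 and 0.606 CPM, and MpLEA-like12 from 36, 31.3 and 43.9 CPM to 7.6, 8.2 and 7.83 CPM. The remaining falls among the 10 largest were MpLEA-like9, MpLEA-like2, MpLEA-like50, MpLEA-like14 and MpLEA-like48, with log2 changes of −1.57 to −1.83, and the peroxidase gene MpPOD143. In each of these genes the libraries at 24 h lay below all libraries at 12 h.

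MpLEAL1 moved in opposite directions in the 2 conditions. It fell from 117, 95.1 and 170 CPM to 46.7, 50.4 and 51.7 CPM in far-red light and rose from 56.9, 50 and 52.5 CPM to 103, 123 and 138 CPM in darkness. The far-red change was −1.30 ± 0.24 and the darkness change 1.17, with a difference of −2.47 ± 0.34 (SE). Its level was the higher one in far-red light at 12 h and the higher one in darkness at 24 h. MpLEA-like9 and MpLEA-like48 had darkness changes of 0.83 and 0.60 that were not called, beside far-red changes of −1.83 and −1.57.

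Summed over the 72 LEA and dehydrin genes, far-red light went from 2480 ± 58.3 CPM (SD, n = 3) at 180 min to 2111 ± 130 CPM at 12 h and 1627 ± 6.83 CPM at 24 h. Darkness was at 2569 ± 19.6 and 2681 ± 132 CPM, and time zero at 2467 ± 48.7 CPM. The other lights were lower still at 24 h, with 1424 CPM in red, 1294 CPM in blue and 1237 CPM in white light. Earlier in the course 1 library stood apart: at 60 min of far-red light MpDHN1 was at 130, 130 and 61.9 CPM and MpLEAL7 at 54.9, 54.2 and 13.5 CPM. That time enters no comparison between 12 h and 24 h except through the shared spread of the fit. Of the 64 tested members, 13 had fractional reads in 6 or more of the 12 libraries, MpLEAL7 and MpLEA-like61 in 11 each, so their split between similar copies is uncertain.

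The 2 largest falls without a symbol had neighbouring identifiers. Mp4g15750 fell from 140, 112 and 168 CPM to 8.68, 10.1 and 9.68 CPM and Mp4g15740 from 83.7, 67.3 and 97 CPM to 7.66, 6.25 and 5.26 CPM, by −3.73 ± 0.21 and −3.50 ± 0.21 (SE). Darkness libraries lay between 189 and 254 CPM for Mp4g15750 and between 106 and 155 CPM for Mp4g15740. MpLEAL7 (Mp2g26410) and MpLEA-like9 (Mp2g26450) each had a called fall at the next or preceding identifier, Mp2g26420 with −1.87 and Mp2g26440 with −2.90. MpDIR47 and MpDIR46 were another such pair. Among the rises, Mp3g15760, next to MpLTPd8, rose by 1.27. These neighbours were looked up after the calls were known, and no strand setting is given for the counting, so overlapping neighbours may share reads.

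**Figure D5:**
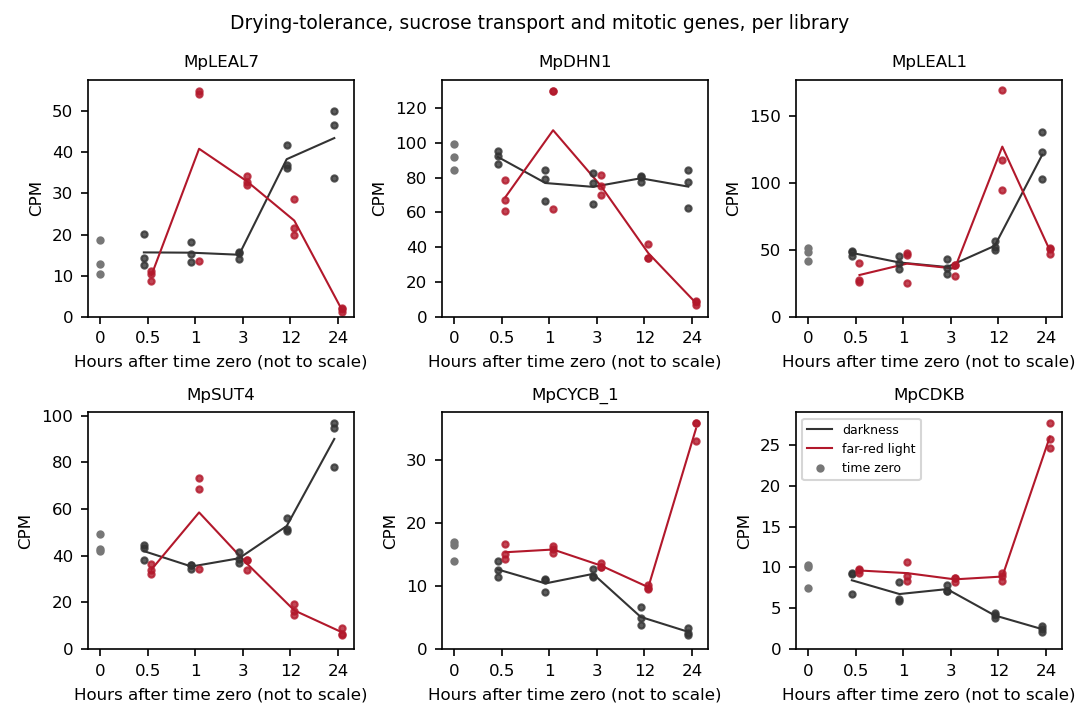
CPM on a linear axis against time after time zero, drawn at equal steps, for 3 LEA or dehydrin genes, the sucrose transporter gene MpSUT4 and 2 mitotic genes. Points are libraries and lines join group means (n = 3). From 12 h to 24 h MpLEAL1 and MpSUT4 fall in far-red light while their darkness means go up. The lines of MpLEAL1 cross and those of MpSUT4 move apart. MpCYCB_1 and MpCDKB rise in far-red light while their darkness means go down.

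MpSUT4, a sucrose transporter gene, fell from 16.2, 14.4 and 19.1 CPM to 6.54, 6.14 and 8.94 CPM in far-red light, by −1.11 ± 0.14 (SE). In darkness it went from 51.3, 56.3 and 50.5 CPM to 78.2, 96.9 and 94.9 CPM, a log2 change of 0.76 (limma adjusted p = 7.3e-05) short of the fold threshold. The difference, −1.86 ± 0.20, was called. MpSUT4 was the 1 call among 7 sugar transport and sugar enzyme genes (14.3%, against 0.567% falling among all tested genes).

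Of 15 abscisic acid genes 11 were tested, 3 rose (27.3%, against 1.11% of all tested genes) and 0 fell, with a median log2 change of 0.21. MpCYP707A codes for an abscisic acid 8′-hydroxylase family enzyme, which inactivates the hormone in Arabidopsis, and rose from 9.56, 10.1 and 10.8 CPM to 37, 33.8 and 37.6 CPM, by 1.74 ± 0.29 (SE). It rose in darkness too, from 7.02, 6.61 and 5.25 CPM to 12.5, 15.3 and 15.3 CPM, and the difference of 0.66 ± 0.41 was not called. MpNCED, described above, was another of the 3. In darkness its mean went from 3.64 to 4.69 CPM, and the difference of 0.76 was not called. Genes for making and for inactivating the hormone thus both rose in far-red light, but neither change was called different from that in darkness. MpSLAC1, for a slow anion channel of the guard cell type in flowering plants, rose from 0.0562, 0 and 0.113 CPM to 1.98, 1 and 1.48 CPM. It was the 1 gene of the 11 with the difference from darkness called (9.09%, against 1.58% higher over all tested genes). The MpSLAC1 difference was not called with a pseudocount of 5 (0.35) or with voom on estimated reads (limma adjusted p = 0.076). Its far-red change was not called with a pseudocount of 5 (0.36).

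Of 10 cytokinin genes MpIPT2 was the 1 call (10%, against 1.11% rising among all tested genes). Among 35 tested auxin genes 1 rose and 1 fell (2.86% each, against 1.11% and 0.567% of all tested genes). MpPIN3, of the auxin efflux carriers, went from 1.74, 1.43 and 2.44 CPM to 5.14, 4.07 and 6.31 CPM. MpIAR4B went from 4.05, 2.86 and 4.06 CPM to 0.447, 0.885 and 0.506 CPM. The MpPIN3 change of 1.10 ± 0.19 (SE) fell to 0.97 without the third library at 24 h and to 0.99 without the second at 12 h. None of 9 ethylene genes was called.

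Of 116 tested class III peroxidases 2 rose and 2 fell (1.72% each), shares near the 1.11% and 0.567% of all tested genes. MpPOD143 fell from 25.2, 20.6 and 31.5 CPM to 8.14, 6.28 and 7.15 CPM, by −1.69 ± 0.11 (SE), and MpPOD147 from 17.6, 18 and 18.4 CPM to 7.79, 6.99 and 8.06 CPM. MpPOD19 and MpPOD138 rose at low level, from means of 0.651 to 2.47 CPM and of 0.548 to 2.23 CPM. Both calls were lost without the third library at 24 h, with log2 changes of 0.91 and 0.84. In darkness the MpPOD19 mean also rose, from 0.637 to 1.84 CPM (log2 change 0.80), and the difference of 0.26 was not called. The MpPOD138 mean went from 0.219 to 0.127 CPM there. Of 42 tested dirigent proteins, which steer the coupling of phenol radicals, 0 rose and 2 fell (4.76%, against 0.567% of all tested genes), MpDIR47 from 6.21, 7.15 and 7.18 CPM to 2.39, 2.27 and 1.86 CPM and MpDIR46 from 7.11, 9.88 and 8.62 CPM to 3.54, 3.33 and 3.88 CPM. The MpDIR46 change of −1.05 fell to −0.95 without the second library at 12 h. The family's median log2 change was 0.17, and on adjusted p alone 11 members were higher and 8 lower. Over all tested genes those shares were 13.9% and 11.3%. Its summed level over 59 genes went from 1845 ± 50.3 to 2288 ± 49.5 CPM (SD, n = 3) in far-red light, without overlap of the libraries, and from 1523 ± 28.4 to 1646 ± 47.3 CPM in darkness. Most of the far-red rise of this sum lay in 1 gene, MpDIR5, so the sum does not describe the family. MpDIR5, named after its values were seen, went from 443, 460 and 431 CPM to 713, 732 and 779 CPM in far-red light. Its log2 difference of 0.73 (limma adjusted p = 1.9e-08) was under the fold threshold.

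Of 36 tested polyphenol oxidases 1 rose in far-red light (2.78%, against 1.11% of all tested genes), MpPPO40, from a mean of 1.42 to 4.34 CPM, a call lost without the first library at 12 h (0.91). In darkness 1 rose (2.78%, against 0.138% of all tested genes) and 5 fell (13.9%, against 0.184%). The difference between both changes was called higher in far-red light for 6 (16.7%, against 1.58%) and lower for 1 (2.78%, against 0.766%). Summed over 57 genes, the level went from 1594 ± 123 to 2078 ± 69.2 CPM (SD, n = 3) in far-red light, without overlap of the libraries. In darkness it went from 1322 ± 22.2 to 1100 ± 41.2 CPM, and the sums were not tested. The far-red sum does not describe the family. Its median log2 change in far-red light was −0.13, and on adjusted p alone 5 members were higher and 7 lower. Most of the far-red rise of the sum lay in 1 gene, MpPPO22. MpPPO22 was at 473, 512 and 583 CPM at 12 h and at 935, 914 and 983 CPM at 24 h of far-red light. Its log2 difference of 0.86 (limma adjusted p = 5.2e-08) was under the fold threshold. In darkness its means were 298 and 263 CPM, and the difference between both changes was 1.04 ± 0.17 (SE; 0.98 with TMM factors and 0.97 without the first far-red library at 12 h). MpPPO71 went from 20.5, 20.8 and 23.4 CPM to 5, 4.46 and 6.51 CPM in darkness and from 38.1, 39.2 and 30.7 CPM to 28.2, 23.8 and 24.6 CPM in far-red light. The difference was 1.37 ± 0.14 (SE). MpPPO45, MpPPO17, MpPPO53 and MpPPO9 were the other darkness falls, to means of 0.328 to 3.88 CPM, while their far-red log2 changes were between −0.29 and −0.07. These 5 and MpPPO22 were named after their values were seen. MpPPO22 had fractional reads in all 12 libraries. Of the 36 members, 22 had fractional reads in 6 or more of the 12 libraries, so reads may be split among copies.

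Of 116 tested cell wall enzymes 4 rose (3.45%, against 1.11% of all tested genes) and 0 fell, with a median log2 change of 0.13. In darkness 3 rose (2.59%, against 0.138%) and 0 fell. Members were grouped by symbol, and a function in the wall was not tested. MpGH19.7 and MpGH18.1, named after their values were seen, rose by 1.04 and 1.07 in far-red light. Their darkness changes were 1.19 and −0.02. MpGH16.11, of the family that holds xyloglucan endotransglucosylases, rose from 16.8, 16.3 and 13 CPM to 41.8, 38.9 and 49.7 CPM, by 1.44 ± 0.09 (SE). MpCE13.2 passed the test with values of 0.0519, 0.676 and 5.96 CPM at 12 h and 3.31, 4.93 and 4.35 CPM at 24 h, which overlap. In the fit of the 6 far-red libraries it was not called (limma adjusted p = 0.16). MpCSLD6, of the cellulose synthase-like D family, rose from 11.8, 12.3 and 9.42 CPM to 24, 25.8 and 25.9 CPM, by 1.11 ± 0.13 (0.99 without the third replicates). None of 36 tested expansins was called. Among 55 tested cupins and PR proteins MpPR15a and MpPR1o rose (3.64%, against 1.11% of all tested genes). MpPR1o went from 26.2, 26.3 and 27.1 CPM to 64.7, 72.3 and 73.9 CPM in far-red light and from a mean of 14.8 to 38.3 CPM in darkness, with a difference of 0.06 ± 0.55 (SE).

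None of the 21 photoreceptor and signalling genes was called, and their log2 changes lay between −0.30 and 0.56. MpPHY, for phytochrome, was at 839, 734 and 675 CPM at 12 h and at 691, 782 and 740 CPM at 24 h, with a log2 difference of −0.02 ± 0.12 (SE). It was at 332 and 338 CPM in darkness and at 138 CPM at time zero, and had reached 703 CPM by 180 min of far-red light. MpFHY1, named for a phytochrome nuclear import factor, went from 63.4 to 56.1 CPM. Log2 differences of the other receptors were −0.01 for the cryptochrome gene MpCRY, 0.10 for the phototropin gene MpPHOT, −0.06 for the ultraviolet-B receptor gene MpUVR8 and −0.15 for MpFKF.

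Of the 21, 4 were higher and 2 lower on adjusted p alone, where 13.9% and 11.3% of all tested genes were. The list was thus near those shares. MpLOVA went from 15.7 to 23.6 CPM, the phytochromobilin pathway gene MpHY1 from 67.9 to 81.4 CPM, MpNCH1 from 208 to 235 CPM and MpBHLH6 from 292 to 336 CPM. MpRUP went from 22.8 to 18.3 CPM and MpEID1 from 46.7 to 41.4 CPM. For MpCOP1, MpSPA1, MpDET1, MpDDB1, MpCOP10, MpNPH3, MpTZP1, MpHY2 and MpCRY-DASH the log2 differences lay between −0.05 and 0.20, and none passed the test. A difference that misses the threshold does not show equal levels.

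None of the 8 clock genes was called. Mp1R-MYB11 went from 28.8, 30.1 and 29.4 CPM to 50.4, 50.4 and 53.8 CPM, a log2 difference of 0.79 (limma adjusted p = 3e-11) short of the fold threshold. MpGARP7 differed by 0.38 (adjusted p = 0.024). MpELF3, MpGI, MpELF4, MpXCT, MpPRR and MpTOC1 had differences between −0.00 and 0.14 in far-red light that did not pass. MpPRR, a pseudo-response regulator gene, was at 188 and 202 CPM in far-red light and at 66.7 and 121 CPM in darkness, a darkness change of 0.85 (limma adjusted p = 6.7e-09).

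Of 22 sexual reproduction genes 9 were tested and 1 rose (11.1%, against 1.11% of all tested genes). MpBELL1, coding for a TALE homeodomain protein, went from 0.534, 0.416 and 0.369 CPM to 2.59, 3.01 and 2.23 CPM, by 1.32 ± 0.15 (SE), and the highest mean of any other group was 1.17 CPM, in white light at 24 h. Its difference from darkness, 1.15 ± 0.21, was not called with a pseudocount of 0.1 (1.29, adjusted p = 0.22), with a pseudocount of 5 (0.44), with voom on estimated reads (0.14, adjusted p = 0.95) or without the second replicates (0.93). The others tested, MpCEN1, MpMID, MpDUO1, MpR2R3-MYB1, MpHD7, MpRKD, MpGEX2 and MpC2H2-3, had log2 differences between −0.34 and 0.35. MpRKD, an RWP-RK factor needed for egg cells, was at 96.2 and 122 CPM and passed on adjusted p alone.

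Most markers of reproductive tissue had far-red means under 1 CPM, though not all did, and markers of vegetative tissue were detected at both times. The sperm markers MpCEN1 and MpC2H2-3 were at 56.1 and 62.4 CPM and at 4.48 and 4.97 CPM. MpRKD, listed as an egg marker, was at 96.2 and 122 CPM, so reproductive markers went both ways. All plants were of a male line and MpRKD lay between 59.2 and 124 CPM over the 12 libraries. Its level therefore cannot be read as egg tissue. Of 24 markers with a symbol, 11 were under 1 CPM in all 12 libraries, among them the sperm genes MpPRM and MpLC7, at most 0.0638 and 0.163 CPM, and the gametangium gene MpBHLH20, at most 0.135 CPM. The small subunit gene of Rubisco, MpRBCS, went from a mean of 102 to 66.8 CPM in far-red light and from 148 to 124 CPM in darkness. The rhizoid gene MpBHLH14 was at 30.5 and 27.9 CPM and MpROP at 185 and 196 CPM. The oil body genes MpERF13, MpC1HDZ, MpSYP12B and MpR2R3-MYB2 were at 1.32 and 1.48, 59.3 and 47.1, 1.6 and 1.26, and 1.99 and 1.56 CPM, and the gemma cup gene MpGCAM1 at 2.81 and 3.92 CPM. Among the tested markers MpBELL1 was the 1 call, and whether tissue proportions moved with the changes above was not tested.

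Of the 48 gene lists, 23 held no call in far-red light, with medians between −0.13 and 0.28. They included the MYB, bHLH, ERF, WRKY, B-box, NAC, bZIP and C2H2 families of transcription factors. Among homeodomain factors MpBELL1, and among GRAS factors MpGRAS5, was the 1 call, so the 10 transcription factor lists held 2 calls among 189 tested genes (1.06%, against 1.68% of all tested genes). Over genes with a symbol, which these lists are drawn from, the share called was larger than that. MpGRAS5 rose from 2.84, 2.21 and 1.76 CPM to 5.43, 5.81 and 5.9 CPM, a call lost without the third library at 12 h (0.93). None of 7 chlorophyll and haem synthesis genes was called, though 4 were higher on adjusted p alone, against 13.9% of all tested genes. MpGUN5 (143 to 183 CPM) and MpCHLD (63.6 to 76.4 CPM) were such genes, both named after their values were seen.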

How the data were processed

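The authors deposited a table of 19355 genes in 78 libraries from paired-end reads of 150 bases, per the labels' protocols. STAR is named in the submitters' processing notes, while the sources used here give no version of it, build, counting tool or strand setting. Each deposited column sums to 1000000, and within a column every value was checked to be a multiple of 0.001 of 1 step shared by all genes, 89.5% to 93.3% of values being whole reads within 0.01, so the deposited unit is CPM of estimated reads and not the TPM assumed when the tests were set. Depth was computed from that step (17237516 to 42465633 estimated reads over all libraries). A second deposited table of the 26 group means was not used.

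Genes at 1 CPM or more in 3 or more of the 78 libraries were kept (13054). Log2(CPM + 1) was fitted in R 4.3.3 (limma 3.58.1), giving each of 26 groups its mean, with a trend of the prior variance, and tested on simulated data. Adding 1 understates changes of low genes. Changes are the 24 h minus the 12 h mean, and their difference is an interaction contrast. Symbols came from RefSeq's table of assembly MpTak2_v7.1 by locus tag (17384 identifiers matched, 3091 with a symbol, 2508 of them tested); it was not shown that the files use that build. No sequence or coordinate is printed, and the planned motif description was not run.

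Named genes are the 10 largest rises and falls with a symbol, 2 each without, 5 each for the difference, up to 2 each per list, all light, clock and reproduction genes and the markers, plus those marked in the text. The comparison, the members and the 48 lists were chosen with earlier results of these data known. Alternatives were other pseudocounts, filters, scalings and fits, libraries left out, and a voom fit chosen after the data were seen.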

Additional observations from a re-analysis of the deposited data

Results flagged for a closer look

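The change from 12 h to 24 h differed between far-red light and darkness for 306 genes by the interaction test in limma (adjusted p under 0.05, log2 difference at least 1). Values below are the far-red change minus the darkness change on the log2 scale, for the genes named above. No explanation was tested.

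Among genes near 0 before 24 h or rising most, it was 5.39 for MpOMT13, 4.84 for MpCYP716-like21, 4.70 for MpIPT2, 4.55 for Mp3g20700, 4.41 for Mp2g07220, 4.35 for MpCYP821A1, 3.91 for MpLTPd8, 3.62 for MpPR15a, 3.28 for MpCYP716AA1, 2.52 for MpABCG11, 2.09 for MpCYP829-like27 and 1.43 for MpDFR-like10. For isoprenoid and gibberellin-related genes it was 2.44 for MpKAOL1, 1.81 for MpTPS4, 1.69 for MpKAOL2, 1.62 for MpDXS2 and 1.05 for MpDXR2. Division genes had 2.43 for MpCYCB_1, 2.04 for MpH3.1d, 2.03 for MpCDKB, 1.82 for MpH3.1a, 1.53 for MpH2A, 1.39 for MpDEL1, 1.38 for MpH2B.6 and 1.27 for MpH3.1b. MpH2A, MpH3.1b, MpH2B.6 and MpDEL1 were not called within far-red light alone (log2 changes of 0.79, 0.62, 0.95 and 1.00, the last just under the fold threshold) and were named after their values were seen.

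For polyphenol oxidases it was 1.52 for MpPPO17, 1.46 for MpPPO45, 1.37 for MpPPO71, 1.37 for MpPPO53 and 1.21 for MpPPO9, where the darkness change was the larger in size of both, and 1.04 for MpPPO22, where the far-red change was. Other positive differences were 1.35 for MpCSLD6, 1.20 for MpGH16.11, 1.19 for MpSLAC1, 1.18 for MpPIN3, 1.15 for MpBELL1, 1.15 for MpPOD138 and 1.14 for MpDOXC30.

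Negative differences were −3.34 for MpLEAL7, −2.66 for MpLEA-like9, −2.47 for MpLEAL1, −2.31 for MpLEA-like61, −2.18 for MpLEA-like12, −2.17 for MpLEA-like48, −1.97 for MpDHN1, −1.86 for MpLEA-like14, −1.69 for MpLEA-like50, −1.63 for MpLEA-like2, −1.31 for MpLEA-like10 and −1.08 for MpDHN2. Outside that family they were −3.86 for Mp4g15750, −3.81 for Mp4g15740, −1.86 for MpSUT4, −1.59 for MpIAR4B, −1.54 for MpPOD143 and −1.35 for MpDIR47. MpLEA-like10 was named after its values were seen. Without 1 replicate number of every group the differences of MpDXR2 (0.93), MpBELL1 (0.93), MpDOXC30 (0.96), MpGH16.11 (0.96), MpPOD138 (0.70) and MpDHN2 (−0.85) fell under the fold threshold. Those of MpDIR47 and MpLEA-like10 then had limma adjusted p of 0.12 and 0.13.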

How the results depend on the processing

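Counts are given as rises and falls, first in far-red light (145 and 74), then in darkness (18 and 24), then for the difference (206 and 100). With a pseudocount of 0.1 they were 237 and 158, 51 and 102, and 317 and 153. With a pseudocount of 5 they were 71 and 30, 2 and 6, and 102 and 41. With no fold threshold they were 1808 and 1474, 553 and 987, and 1637 and 1043. With voom on estimated reads, chosen after the data were seen, they were 252 and 149, 46 and 81, and 296 and 159, and 216 of the 219 far-red calls were kept. Leaving out replicates gave 127 to 166 and 62 to 84 in far-red light, 17 to 29 and 21 to 28 in darkness, and 196 to 230 and 90 to 125 for the difference. The 29 came without the second darkness library at 12 h. Rises were 42.9% of the darkness calls and 54.5% with quantile normalization. The remaining counts were within 1.5 times: 108 of 132 in all.

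Of 5210 values of single genes under alternatives, 0 reversed, 94 lost and 64 gained a call, 39 of the losses with a pseudocount of 5 and 44 of the gains with no fold threshold. Same-numbered libraries did not deviate together (r of −0.116, −0.1 and 0.045 in far-red light). A replicate block gave 219 far-red calls, all 219 shared, with 145 rises, 18 in darkness and 206 for the difference, and 74, 24 and 100 falls. Genes under about 1 CPM rest on few reads. Changes of genes at 0 in most groups depend on the pseudocount.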
